A study of Mus musculus with 12 samples.

Results

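The 10 genes described here serve blood and lymph vessels of the skin, and were taken by symbol from the 18505 rows of a table of mouse back skin RNA-seq values. They are the junction proteins Pecam1 and Cdh5, the clotting protein Vwf, the growth factor Vegfa with its receptors Kdr and Flt1, the receptor Tek with its ligand Angpt2, the leukocyte adhesion molecule Sele, and the lymphatic hyaluronan receptor Lyve1. All 10 were found and all 10 passed the filter on low values. The study asked what Banzhilian formula (BZLF), a mixture of traditional Chinese medicinal materials applied to the skin, does to psoriasis-like lesions raised with imiquimod (IMQ), a cream that activates Toll-like receptors. Its 12 samples were skin of wild-type male BALB/c mice, bought at 5 to 6 weeks of age, taken on day 10 from shaved backs, with 4 samples in each of 3 groups. The control group received petroleum jelly. The IMQ + NS group received IMQ cream for 6 h a day and then a 0.9% NaCl solution under gauze and film. The IMQ + BZLF group received the same cream and then BZLF under the same cover, at a dose that the labels do not give. The methods give no saline and no cover for the control skin, so the effect of the cream and that of the wet dressing cannot be told apart.

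In psoriasis the small vessels of the upper dermis widen, lengthen and let leukocytes through. Endothelial cells hold to each other through Pecam1 and VE-cadherin (the product of Cdh5). Vegfa, made by keratinocytes and by other cells, drives endothelial growth and leakiness through Kdr, while Flt1 binds Vegfa tightly and signals weakly. Tek (Tie2) keeps vessels quiescent when it binds Angpt1, and Angpt2, stored in endothelial cells, mostly opposes that signal. Sele (E-selectin) is put on endothelium by inflammatory cytokines and slows rolling leukocytes. Lyve1 marks lymphatic capillaries, and some tissue macrophages carry it too.

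The values are FPKM, counts of fragments divided by transcript length and by sequencing depth, so levels can be compared between genes. The samples added up to 444660 to 506622 FPKM each, with 16649 to 16941 genes above 0. The FPKM that a single fragment is worth differed little between samples, at 0.99 to 1.04 times the median sample, while the number of fragments behind each value is unknown. Control replicate 2 stood apart, with 252 FPKM summed over 10 hair shaft genes against 13.1 to 29.5 FPKM in the other controls and 4197 FPKM over 10 skeletal muscle genes against 9575 to 10528. The labelled tissue was checked on keratinocyte genes, which summed to at least 2633 FPKM in every sample, and on the endothelial markers Emcn, Egfl7 and Tie1, which were above 0 in every sample. Nothing in the labels says that the 4 samples of a group came from separate mice, so the p-values measure the spread between these samples.

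In control skin the junction gene Pecam1 (chromosome 11, 106654217 to 106750628, minus strand, mm10 as annotated in GENCODE M21) had the highest level of the 10 genes, and it held that place in all 12 samples. Its FPKM averaged 36.2 ± 4.13 (SD, n = 4). Cdh5 (chromosome 8, 104101625 to 104144511, plus strand) followed with 21.8 ± 3.12 FPKM and Lyve1 (chromosome 7, 110850607 to 110863239, minus strand) with 21.2 ± 6.91 FPKM, 2 levels that overlapped between samples. Vegfa (chromosome 17, 46016993 to 46032369, minus strand) averaged 15.7 ± 1.01 FPKM and overlapped Lyve1. Kdr (chromosome 5, 75932827 to 75978458, minus strand), with 9.39 ± 1.14 FPKM, overlapped Tek (chromosome 4, 94739289 to 94874976, plus strand), with 8.93 ± 2.01 FPKM, and Vwf (chromosome 6, 125546774 to 125686679, plus strand), with 7.63 ± 1.56 FPKM. Flt1 (chromosome 5, 147561604 to 147726011, minus strand) had 3.35 ± 0.313 FPKM, above the remaining pair in every control sample. Sele (chromosome 1, 164048234 to 164057677, plus strand) had 2.18 ± 0.773 FPKM and overlapped Angpt2 (chromosome 8, 18690263 to 18741562, minus strand), which had 2.02 ± 0.0328 FPKM. Each value sums all transcripts of its gene, of which the annotation lists 13 for Vegfa and 6 for Flt1, so the soluble and membrane-bound forms of Flt1 are not separated. Angpt2 lies inside Mcph1 on the opposite strand, and the sources differ on the library kit, so whether its value holds reads of Mcph1 was not tested.

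**Figure D1:**
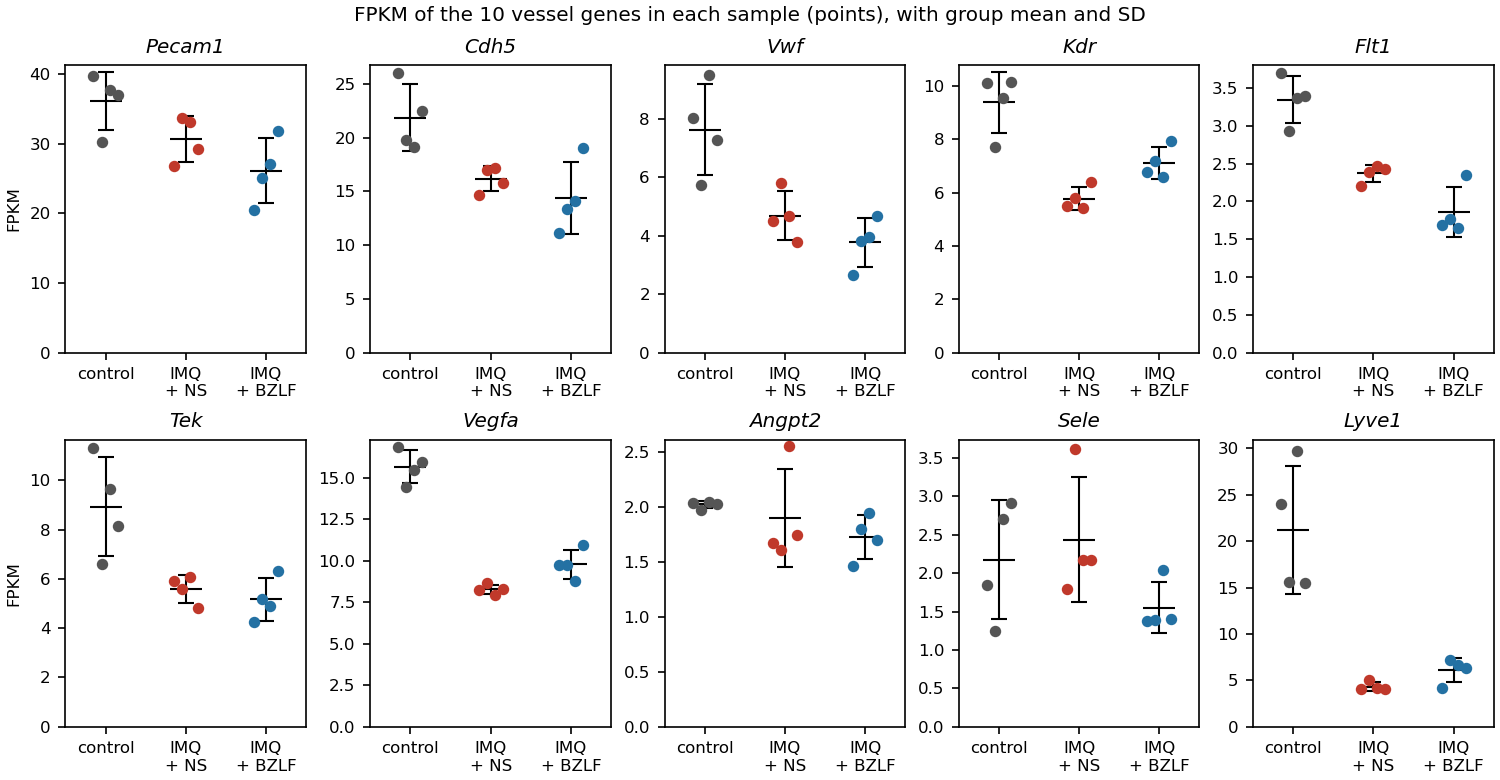
FPKM (vertical axes, each starting at 0) of each gene in the 4 control, 4 IMQ + NS and 4 IMQ + BZLF samples, with points for samples and black bars for the group mean and SD. Lyve1 averaged 21.2 FPKM in control samples, 4.32 FPKM with IMQ + NS and 6.08 FPKM with IMQ + BZLF, whereas the 3 groups of Sele overlapped.

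In IMQ + NS against control samples 7 of the 10 genes fell and none rose. The 7 were Lyve1, Vegfa, Kdr, Vwf, Tek, Flt1 and Cdh5 (limma, Benjamini-Hochberg adjusted p below 0.05), while Pecam1, Angpt2 and Sele did not pass the test. Of all 15288 genes tested, 56.1% were called, 27.1% as lower and 29.0% as higher. The median log2 fold change of the 10 genes was -0.56, against 0.05 over all genes tested. For 6 of the 10 every IMQ + NS sample lay below every control sample, a separation seen for 25.7% of all genes, and for none of the 10 did they all lie above, as for 23.7% of all genes. With a fold change over 2 required as well, Lyve1 alone was called, against 11.0% of all genes that fell by that rule.

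Lyve1 changed most. Its FPKM in the 4 control samples was 24.0, 15.6, 29.7 and 15.5. In the 4 IMQ + NS samples it was 4.03, 5.02, 4.23 and 4.03. Every control sample lay far above the highest IMQ + NS sample, although the control samples themselves differed widely. The log2 fold change was -2.22 (standard error 0.21, limma adjusted p = 6.53e-05).

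Vegfa had 16.9, 14.4, 15.5 and 16.0 FPKM in the control samples. It had 8.25, 8.64, 7.96 and 8.29 FPKM in the IMQ + NS samples. Both groups were tight and far apart, with a coefficient of variation of 6.46% and 3.32%. The log2 fold change was -0.91 (standard error 0.08, limma adjusted p = 3.51e-05). Its receptors moved the same way. Kdr had 10.1, 7.73, 9.54 and 10.2 FPKM in control and 5.51, 5.80, 5.42 and 6.38 FPKM in IMQ + NS samples, and its log2 fold change was -0.68 (standard error 0.11, limma adjusted p = 0.00103). Flt1 had 3.69, 2.93, 3.37 and 3.39 FPKM in control and 2.21, 2.39, 2.46 and 2.43 FPKM in IMQ + NS samples, and its log2 fold change was -0.48 (standard error 0.11, limma adjusted p = 0.00549). In neither receptor did the groups overlap, and control replicate 2 was the lowest control sample of Vegfa, Kdr and Flt1 alike.

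The promoters of these 3 genes and of Sele are shown because the 3 fell together and Sele did not. RefSeq promoter entries were matched for 5 of the 10 genes, Kdr, Flt1, Tek, Vegfa and Sele, with 2 entries for Vegfa, of which the upstream one is printed. Each line gives the 250 bases before the transcription start that RefSeq has on GRCm38.p6, which for Kdr and Vegfa differs by a few bases from the GENCODE gene boundary, 5′ to 3′ on the gene's own strand, with motif matches in capitals.
Kdr, chr5:75978456-75978705, minus strand: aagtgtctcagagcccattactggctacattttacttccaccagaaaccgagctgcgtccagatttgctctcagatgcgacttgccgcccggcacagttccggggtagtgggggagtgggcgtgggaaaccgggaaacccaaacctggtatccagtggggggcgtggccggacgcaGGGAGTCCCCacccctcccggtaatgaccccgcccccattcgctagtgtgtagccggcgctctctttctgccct
Flt1, chr5:147726012-147726261, minus strand: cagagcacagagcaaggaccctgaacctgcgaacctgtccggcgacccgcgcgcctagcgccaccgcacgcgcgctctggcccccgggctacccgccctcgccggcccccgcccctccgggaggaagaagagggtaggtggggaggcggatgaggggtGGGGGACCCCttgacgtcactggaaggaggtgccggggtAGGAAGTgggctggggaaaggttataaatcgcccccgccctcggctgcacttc
Vegfa, chr17:46032378-46032627, minus strand: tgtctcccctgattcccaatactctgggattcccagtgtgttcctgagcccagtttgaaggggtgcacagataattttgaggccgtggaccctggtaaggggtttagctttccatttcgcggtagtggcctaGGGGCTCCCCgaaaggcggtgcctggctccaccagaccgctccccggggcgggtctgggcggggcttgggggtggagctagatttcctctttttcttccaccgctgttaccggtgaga
Sele, chr1:164047984-164048233, plus strand: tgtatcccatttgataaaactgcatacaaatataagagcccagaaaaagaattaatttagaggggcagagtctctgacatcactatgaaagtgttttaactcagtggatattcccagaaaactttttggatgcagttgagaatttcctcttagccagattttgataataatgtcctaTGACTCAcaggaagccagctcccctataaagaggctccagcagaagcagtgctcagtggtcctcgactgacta
The motifs searched on both strands were the hypoxia response element core ACGTG, the ETS factor site AGGAAGT, the AP-1 site TGAGTCA and the NF-kappa B consensus in its 10-letter form. The capitals in Kdr and Vegfa and the longer capital run in Flt1 match the NF-kappa B consensus, which 3.90% of all 32851 RefSeq promoters held in the same window. The shorter capital run in Flt1 is the ETS site, held by 7.69% of promoters. The capitals in Sele are the AP-1 site read on the opposite strand, held by 4.46%. Only full matches were marked, so sites close to a motif, in Sele or in the other genes, stay in lower case. The hypoxia core, found in 16.6% of promoters, was absent from these 4 windows and present in the downstream Vegfa entry. That entry, chr17:46025164-46025413, lies inside the Vegfa gene. Sequence beyond the 250 bases was not searched. The G and C content was 61.6% for Kdr, 70.4% for Flt1 and 59.2% for Vegfa against 40.4% for Sele. Tek fell too, and its window, not printed, matched none of the motifs and had a G and C content of 51.2%. The matches describe letters only, and the table of expression values says nothing on binding to them.

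Cdh5, Vwf and Tek fell as well. Cdh5 had 26.0, 19.8, 19.1 and 22.4 FPKM in control and 14.7, 17.0, 17.2 and 15.8 FPKM in IMQ + NS samples, with no overlap (log2 fold change -0.42, standard error 0.11, limma adjusted p = 0.0111). Vwf, which anchors platelets to injured vessels, had 8.02, 5.75, 9.49 and 7.26 FPKM in control and 4.51, 5.78, 4.67 and 3.77 FPKM in IMQ + NS samples. The groups of Vwf met at control replicate 2 and IMQ + NS replicate 2, and the log2 fold change was -0.69 (standard error 0.18, limma adjusted p = 0.0104). Tek had 11.3, 6.62, 9.66 and 8.14 FPKM in control and 5.91, 5.57, 6.08 and 4.82 FPKM in IMQ + NS samples, without overlap (log2 fold change -0.64, standard error 0.17, limma adjusted p = 0.0101).

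The remaining 3 genes, Pecam1, Angpt2 and Sele, overlapped with control samples. Pecam1 had 39.7, 30.2, 37.7 and 37.0 FPKM in control and 26.8, 33.7, 33.1 and 29.3 FPKM in IMQ + NS samples, with a log2 fold change of -0.23 (95% confidence interval -0.49 to 0.02, limma adjusted p = 0.102). Its call rested on control replicate 2 and on the scaling. Without that replicate the log2 fold change was -0.32 (adjusted p = 0.0123), with samples rescaled to equal sums it was -0.37 (adjusted p = 0.0155), and with quantile normalization it was -0.31 (adjusted p = 0.0498), each past the threshold. Angpt2 had 2.04, 1.97, 2.05 and 2.03 FPKM in control and 1.67, 1.61, 2.56 and 1.74 FPKM in IMQ + NS samples (log2 fold change -0.11, interval -0.47 to 0.24, limma adjusted p = 0.558). Sele had 1.85, 1.25, 2.70 and 2.91 FPKM in control and 1.79, 3.62, 2.17 and 2.17 FPKM in IMQ + NS samples (log2 fold change 0.18, interval -0.50 to 0.85, limma adjusted p = 0.633). The direction of Sele was not settled, since it was -0.02 without IMQ + NS replicate 2 and -0.05 without control replicate 2. A two-sided exact permutation test gave p = 0.0286, the smallest that 4 against 4 samples allow, for the 6 genes without overlap, 0.0571 for Vwf, 0.0857 for Pecam1, 0.571 for Angpt2 and 0.657 for Sele.

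**Figure D2:**
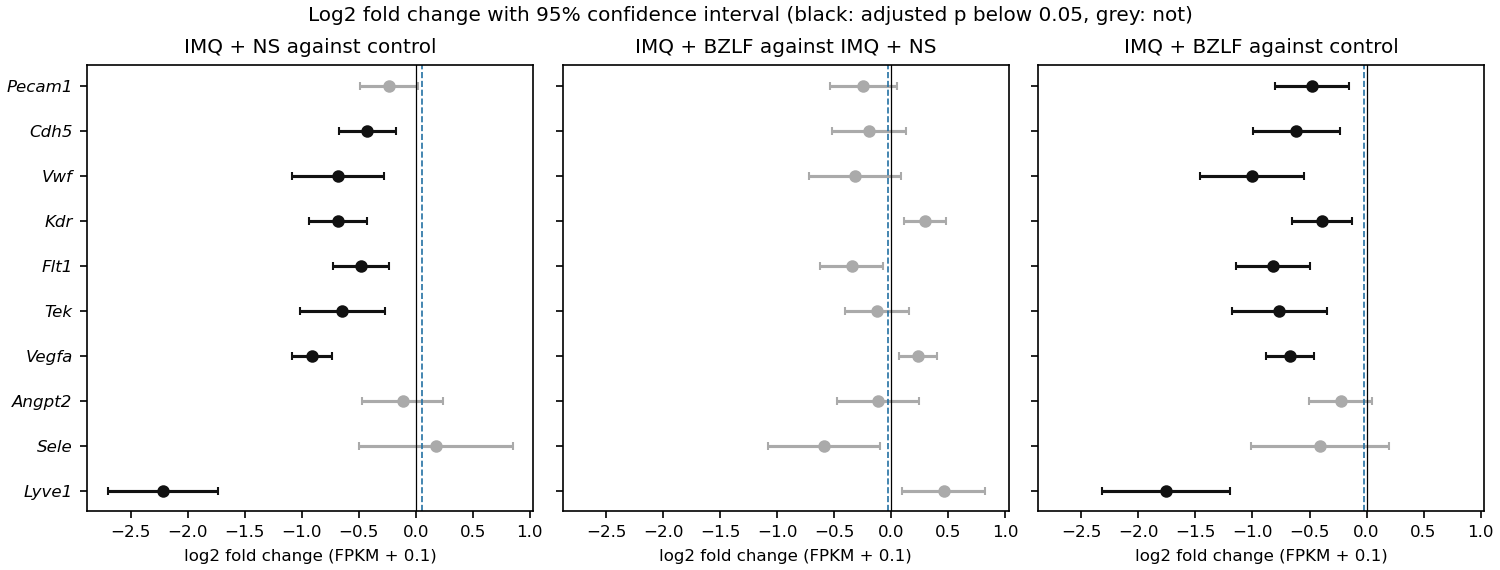
Log2 fold change on the log2(FPKM + 0.1) scale (horizontal axes) of the 10 genes in the 3 comparisons, with 95% confidence intervals from limma, black where the adjusted p was below 0.05 and grey otherwise. The dashed blue line is the median of all 15288 genes tested, and the intervals of Angpt2 and Sele reach across 0 in IMQ + NS against control samples.

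Other endothelial genes fell in the same samples. Of 22 further genes typical of endothelium, 16 fell in IMQ + NS against control samples and none rose, and the median log2 fold change was -0.53. They included the tight junction gene Cldn5 from 39.5 to 12.4 FPKM (-1.62, limma adjusted p below 0.05), the secreted factor Egfl7 (-0.69), the sphingosine phosphate receptor S1pr1 (-1.03) and the adhesion molecule Esam (-0.65). Without control replicate 2, 18 fell. In bulk skin, fewer cells of a type and less RNA per cell cannot be told apart. Other dermal and subcutaneous cell types moved with these genes. The fibroblast list had 8 of 10 genes lower, and its summed level was 13750 to 19671 FPKM in control and 3944 to 5217 FPKM in IMQ + NS samples. Skeletal muscle genes were lower in 10 of 10, with sums of 4197 to 10528 and 755 to 1813 FPKM, and adipocyte genes in 9 of 10, with sums of 4457 to 9632 and 2195 to 3422 FPKM. Hair shaft genes were higher in 10 of 10, with sums of 13.1 to 252 FPKM in control and 5264 to 7732 FPKM in IMQ + NS samples. Keratinocyte genes were higher in 6 and lower in 2 of 10, with sums of 2633 to 4421 and 5373 to 8293 FPKM. No gene of these 5 lists was at 0 in any sample. The part of these shifts in the fall of the vessel genes was not tested.

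The genes around the VEGF and Tie receptors are ligands and partners of the 10. Of 10 VEGF ligands and receptors, Vegfa, Kdr and Flt1 included, 7 fell and none rose in IMQ + NS against control samples, and their median log2 fold change was -0.63. Vegfb, a ligand of Flt1, fell from 52.0 ± 12.2 to 17.9 ± 1.26 FPKM (log2 fold change -1.50, limma adjusted p = 1.76e-04). The coreceptor Nrp1 fell by 0.57 on the log2 scale, and Flt4, the receptor of lymphatic endothelium, by 0.97. Of 8 genes of the angiopoietin group, 5 fell, namely Tek, Angpt1, Angpt4, the receptor phosphatase Ptprb and the secreted relative Angptl1. Angpt1, which activates Tek, went from 4.85 ± 1.53 to 1.57 ± 0.347 FPKM (log2 fold change -1.54, limma adjusted p = 5.29e-04), while its counterpart Angpt2 did not pass the test. The ratio of Angpt2 to Angpt1 FPKM, picked after the values were seen, was 0.285 to 0.512 in control samples, 0.782 to 1.81 after IMQ + NS and 0.809 to 1.25 after IMQ + BZLF.

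Lymphatic genes fell alongside Lyve1. Of 16 on the list, Lyve1 included, 12 fell and none rose in IMQ + NS against control samples, and their median was -1.13 on the log2 scale. Ccl21a, a chemokine made by lymphatic endothelium that draws dendritic cells, went from 264 ± 34.9 to 61.0 ± 9.41 FPKM (-2.12, limma adjusted p = 7.1e-06). Prox1, the transcription factor that sets lymphatic identity, was named after its values were seen and went from 1.01 ± 0.174 to 0.354 ± 0.0460 FPKM (-1.29, limma adjusted p = 3.24e-04), and Sema3d (-1.46), Reln (-1.65) and Mmrn1 (-1.51) fell too. The ratio of Lyve1 to Prox1, also picked after the values were seen, was 14.4 to 30.2 in control samples, 11.3 to 13.9 after IMQ + NS and 15.9 to 25.4 after IMQ + BZLF. Of 10 macrophage genes, a further source of Lyve1, 8 were lower and 1 was higher in the same comparison, with a summed level of 959 to 1387 FPKM in control and 647 to 917 FPKM in IMQ + NS samples. C1qa, C1qb and C1qc, which had the highest levels of the list, fell by 0.54, 0.36 and 0.48 on the log2 scale. Folr2 (-2.02) and Cd163 (-1.40), named after their values were seen, fell most, and Adgre1 rose (0.70). No macrophage gene of the list was at 0 in any sample, and the part of these genes' cells in the fall of Lyve1 was not tested.

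Vwf and Pecam1 are carried by platelets as well. Of 10 platelet genes 6 were at 0 in at least 1 sample and 4 could be tested, of which 1 was higher and 1 lower in IMQ + NS against control samples. Their summed level was 158 to 188 FPKM in control samples, 45.2 to 78.3 FPKM after IMQ + NS and 41.6 to 75.5 FPKM after IMQ + BZLF. Nearly all of it was Pf4, which macrophages also express, with 168, 55.0 and 54.9 FPKM on average. Ppbp and Gp9, which are close to specific for platelets, averaged 0.432 and 0.0266 FPKM in the control group. Red cell genes summed to 237 to 705 FPKM in control samples, 193 to 247 FPKM after IMQ + NS and 261 to 473 FPKM after IMQ + BZLF. Of 7 red cell genes tested, 4 were lower and 2 higher in IMQ + NS against control samples. The higher ones were Ahsp (log2 fold change 4.38) and Slc4a1 (3.29). The part of blood left in the skin in these results was not tested.

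Sele belongs to the molecules that let leukocytes leave the blood, and of 12 such genes 3 rose and 4 fell in IMQ + NS against control samples, and the median log2 fold change was -0.02. The lowest adjusted p-values belonged to falls of Cd34 (-2.43), Jam3 (-0.96) and Jam2 (-1.59) and a rise of the junction protein F11r (1.08), which epithelia share. Selp and Vcam1, partners of Sele named after their values were seen, rose by 0.58 and 0.59 (limma adjusted p = 0.0283 and 0.0229). In both genes the groups overlapped. Icam1, of the same list, was at -0.18 (limma adjusted p = 0.0826). Selp, released to the endothelial surface from stores, went from 3.51 ± 0.490 to 5.39 ± 1.30 FPKM. Neutrophil genes were higher in 9 of 10 and lower in 1, with sums of 41.6 to 67.0 and 56.9 to 115 FPKM. The hypoxia list had 5 genes higher and 5 lower. In it Vegfa and the collagen hydroxylase P4ha1 (-1.12) fell, whereas Egln3 (0.97) and the glucose transporter Slc2a1 (1.22) rose. Hif1a, the oxygen-regulated subunit of the factor, was named after its values were seen and rose from 22.1 ± 4.72 to 45.5 ± 8.11 FPKM (1.04, limma adjusted p = 8.93e-04).

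**Figure D3:**
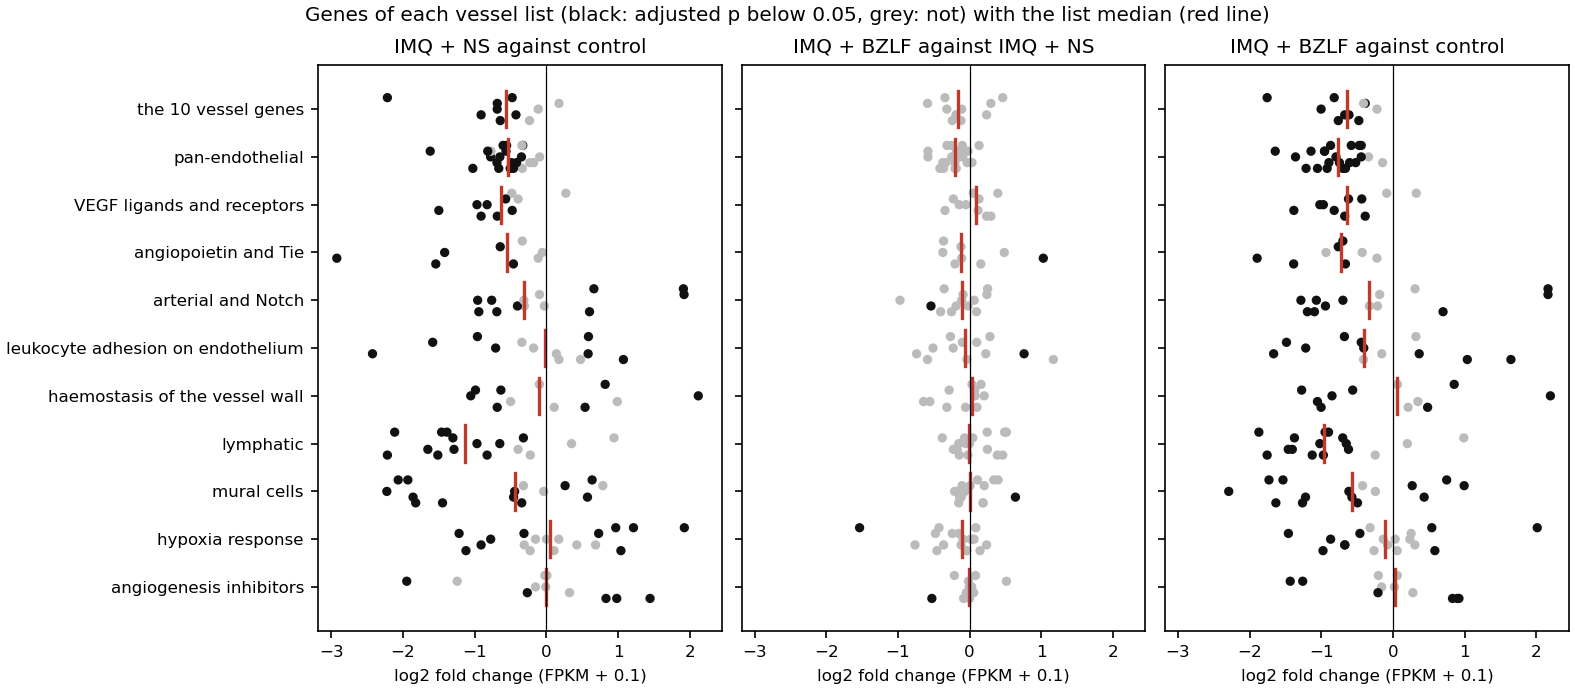
Log2 fold change on the log2(FPKM + 0.1) scale (horizontal axes) of every tested gene of the 10 vessel genes and of 10 other lists, in the 3 comparisons, with a red line at the list median. Black points passed an adjusted p of 0.05. In IMQ + NS against control samples the lymphatic list lay lowest, with a median of -1.13, and nearly all points in the panel of IMQ + BZLF against IMQ + NS are grey.

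When IMQ + BZLF samples were set against IMQ + NS samples, none of the 10 genes passed the test by limma, while at an unadjusted p below 0.05 Kdr, Vegfa and Lyve1 were higher and Flt1 and Sele lower. Of all genes, 6.45% were called by the adjusted p, 1.28% as higher and 5.17% as lower, and 22.7% had an unadjusted p below 0.05, 7.96% higher and 14.8% lower. The median log2 fold change of the 10 genes was -0.16, against -0.02 over all genes. For 2 genes, Kdr and Vegfa, every IMQ + BZLF sample lay above every IMQ + NS sample, a separation that 4.24% of all genes showed in that direction. For the other 8 the groups overlapped.

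Kdr had 6.78, 7.17, 6.59 and 7.95 FPKM in the IMQ + BZLF samples. All 4 lay above the IMQ + NS samples, and only replicate 4 exceeded a control sample, replicate 2 at 7.73. The log2 fold change was 0.30 (95% confidence interval 0.11 to 0.48, limma adjusted p = 0.0697, exact permutation p = 0.0286). Vegfa had 9.77, 9.72, 8.77 and 10.9 FPKM, above the IMQ + NS samples by little and well below the control samples (log2 fold change 0.24, interval 0.07 to 0.40, limma adjusted p = 0.0963, exact permutation p = 0.0286). The scaling decided both calls. With median ratio scaling Kdr was at 0.35 (adjusted p = 0.0360) and Vegfa at 0.29 (0.0416), and with quantile normalization they were at 0.35 (0.0346) and 0.29 (0.0403), all past the threshold. Skeletal muscle genes had sums of 755 to 1813 FPKM in IMQ + NS and 1344 to 1828 FPKM in IMQ + BZLF samples, with a median log2 fold change of 0.49 and none of 10 called. Their part in these values was not tested.

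Lyve1 had 4.20, 7.16, 6.70 and 6.28 FPKM in the IMQ + BZLF samples, of which only replicate 1 lay within the range of the IMQ + NS samples. The log2 fold change was 0.46 (interval 0.10 to 0.82, limma adjusted p = 0.131). Without IMQ + BZLF replicate 1 it was 0.63 and passed the threshold (adjusted p = 0.0107). The same replicate had the lowest summed level of the 22 endothelial genes, 154 FPKM, against 187 to 240 in the other IMQ + BZLF samples, and of the lymphatic list, 81.0 FPKM against 132 to 151. None of the 16 lymphatic genes was called in this comparison, 3 had an unadjusted p below 0.05, and without that replicate 2 rose, Lyve1 among them. Prox1 was at 0.314 ± 0.116 FPKM after BZLF, against 0.354 ± 0.0460 FPKM in IMQ + NS samples (log2 fold change -0.17, limma adjusted p = 0.701). The macrophage genes Folr2 and Cd163 were at 0.66 and 0.27 (limma adjusted p = 0.126 and 0.572). Of the 10 macrophage genes 2 fell and 0 rose, with a median of -0.26. Their part in the values of Lyve1 was not tested.

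Flt1 had 1.68, 1.77, 1.65 and 2.35 FPKM in the IMQ + BZLF samples. Replicate 4 lay among the IMQ + NS samples and the other 3 below them (log2 fold change -0.34, interval -0.62 to -0.07, limma adjusted p = 0.137). Without IMQ + BZLF replicate 4 the log2 fold change was -0.46 and passed the threshold (adjusted p = 0.0330). The log2 fold changes of the VEGF receptors thus had opposite signs. The ratio of Kdr to Flt1 FPKM, picked after the values were seen, was 2.64 to 3.0 in control samples, 2.20 to 2.63 after IMQ + NS and 3.38 to 4.05 after IMQ + BZLF. The range after BZLF lay above the other 2. How often ratios of other gene pairs separate in this way was not counted, and neither receptor passed the test against IMQ + NS samples.

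Sele had 1.38, 1.39, 2.04 and 1.40 FPKM in the IMQ + BZLF samples, and replicate 3 was the only one above the lowest IMQ + NS sample (log2 fold change -0.59, interval -1.08 to -0.10, limma adjusted p = 0.148). Its partners Selp (-0.74, limma adjusted p = 0.0688) and Vcam1 (-0.27, limma adjusted p = 0.318) did not pass the test either. Over the 12 leukocyte adhesion genes 1 was called, Cd34, which also marks hair follicle stem cells and some fibroblasts, and it rose from 56.8 ± 8.58 to 97.7 ± 23.8 FPKM (0.76, limma adjusted p = 0.0380). Neutrophil genes fell in 9 of 10 after BZLF, with sums of 56.9 to 115 and 16.8 to 27.6 FPKM.

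The values of Pecam1, Cdh5, Vwf, Tek and Angpt2 overlapped with those of the IMQ + NS samples. Pecam1 had 20.5, 25.1, 27.1 and 31.8 FPKM after BZLF (log2 fold change -0.24, interval -0.54 to 0.05, limma adjusted p = 0.307). Cdh5 had 11.1, 13.4, 14.1 and 19.0 FPKM (-0.19, interval -0.52 to 0.13, limma adjusted p = 0.474), and Vwf had 2.65, 3.81, 3.95 and 4.66 FPKM (-0.32, interval -0.72 to 0.09, limma adjusted p = 0.331). In these 3 genes replicate 1 was the lowest and replicate 4 the highest of the group. Tek, with 4.27, 5.19, 4.89 and 6.32 FPKM, followed the same pattern (-0.12, interval -0.40 to 0.16, limma adjusted p = 0.611). Angpt2 had 1.46, 1.80, 1.94 and 1.69 FPKM (-0.11, interval -0.47 to 0.25, limma adjusted p = 0.720), and the direction turned without IMQ + NS replicate 3, to 0.03. None of the 22 other endothelial genes was called, 7 had an unadjusted p below 0.05, as did 22.7% of all genes, and 20 had a log2 fold change below 0, with a median of -0.21.

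Few neighbours of the 10 genes were called in IMQ + BZLF against IMQ + NS samples, where 6.45% of all genes tested were called. Of the 8 genes of the angiopoietin group 1 was called, Angptl1, which rose from 3.45 ± 0.711 to 7.27 ± 2.19 FPKM (log2 fold change 1.03, limma adjusted p = 0.0356). The arterial connexin Gja4 fell by 0.54 on the log2 scale (limma adjusted p = 0.0189), 1 call among 13 arterial and Notch genes. Slc2a1 fell from 28.4 ± 6.49 to 9.75 ± 2.30 FPKM (-1.54, limma adjusted p = 0.00387), the single call among 18 hypoxia genes. Of the 10 VEGF ligands and receptors none was called, while 4 had an unadjusted p below 0.05, with a median log2 fold change of 0.08.

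Set against control samples, the IMQ + BZLF samples had lower levels of most vessel genes, as 8 of the 10 genes fell and none rose. Of all genes, 53.0% were called, 29.2% as lower and 23.8% as higher. This comparison shares samples with the other 2, so its values stand beside them and add no separate evidence. For 7 genes every IMQ + BZLF sample lay below every control sample, against 28.1% of all genes, and for none did they all lie above, as for 19.4% of all genes. The median log2 fold change of the 10 genes was -0.64, against -0.02 over all genes. Lyve1 was at -1.76 (standard error 0.25, limma adjusted p = 6.37e-04), Vwf at -1.0 (0.20, 0.00344), and these 2 also passed a fold change of 2. By that rule 10.1% of all genes fell and 9.65% rose. Flt1 was at -0.82 (limma adjusted p = 0.00178), Tek at -0.76 (0.00774), Vegfa at -0.67 (5.85e-04) and Cdh5 at -0.61 (0.0146). Angpt2 did not overlap with its control samples, yet its log2 fold change of -0.22 (interval -0.50 to 0.05) had an adjusted p of 0.148.

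For the remaining 3 genes, of which Kdr and Pecam1 lay near the threshold, the call changed in that comparison when some single samples were left out, while the direction held. Kdr was at -0.39 (limma adjusted p = 0.0203), with values from -0.48 to -0.35 when each sample was left out in turn. It lost its call when control replicate 1 (-0.35), 3 (-0.38) or 4 (-0.35) or IMQ + BZLF replicate 1 (-0.37) or 3 (-0.35) was left out. Pecam1 was at -0.48 (limma adjusted p = 0.0212) and lost its call when control replicate 1 (-0.43), 3 (-0.45) or 4 (-0.46) or IMQ + BZLF replicate 2 (-0.46) was left out. Sele, at -0.41 (limma adjusted p = 0.219), was called without control replicate 2, at -0.64 (0.0208). Of the 22 other endothelial genes 20 fell and none rose, with a median of -0.77, and of the 16 lymphatic genes 13 fell and none rose, with a median of -0.96.

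Each gene was also set against the mean log2 level of the 22 other endothelial genes in the same sample, which describes how far it moved beyond them. That mean was 3.27 in control samples, 2.70 with IMQ + NS and 2.47 with IMQ + BZLF on the log2(FPKM + 0.1) scale. In IMQ + NS against control samples Cdh5, Vwf, Kdr, Flt1 and Tek were within 0.14 of it and their groups overlapped. Lyve1, 1.65 lower than the list, and Vegfa, 0.34 lower, lay below it without overlap, as did 9.74% of all genes on this scale. Sele, 0.74 higher, and Pecam1, 0.33 higher, lay above it without overlap, as did 48.1% of all genes. After BZLF compared with IMQ + NS, Lyve1 (0.69), Kdr (0.52) and Vegfa (0.46) lay above the list without overlap, against 9.68% of all genes. None of the 10 lay below it without overlap, against 3.21% of all genes. After BZLF compared with control skin, Angpt2 (0.57), Kdr (0.41), Pecam1 (0.32) and Cdh5 (0.18) lay above without overlap, against 57.5% of all genes. Lyve1 lay below (-0.96), against 4.94%.

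**Figure D4:**
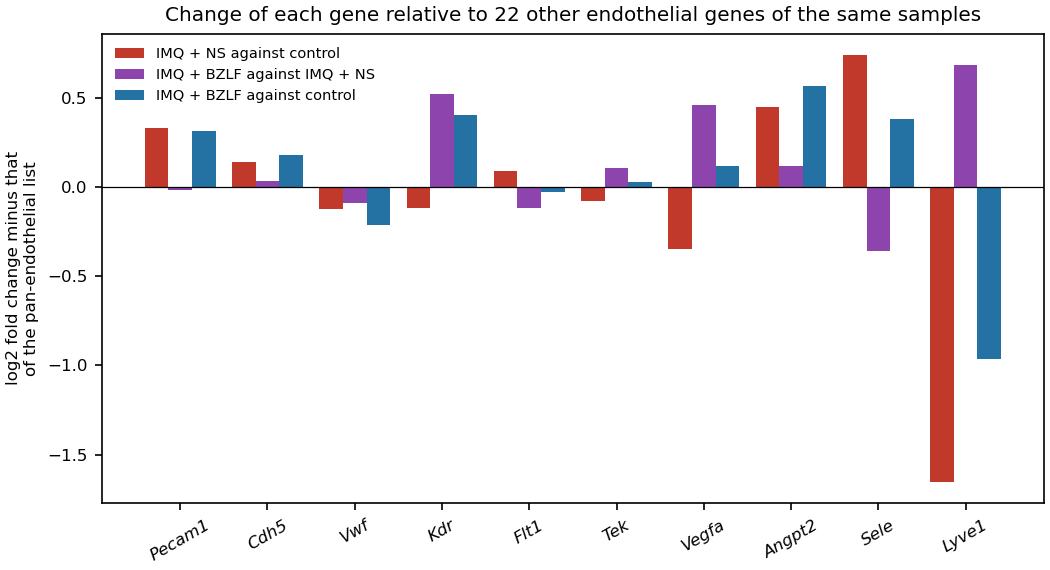
Log2 fold change of each gene minus that of the mean of 22 other endothelial genes (vertical axis, log2 units), as bars for the 3 comparisons. The bars of Lyve1 are at -1.65 for IMQ + NS against control and at 0.69 for IMQ + BZLF against IMQ + NS, while those of Tek lie between -0.08 and 0.11.

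Within groups the 10 genes varied together to unequal degrees. After each group's mean was subtracted from log2(FPKM + 0.1), the median Pearson r over the 45 pairs was 0.50 across the 12 samples. The points share their library, so this is a description. Pecam1 correlated with Cdh5 at 0.86 and with Vwf at 0.85, Vwf with Lyve1 at 0.82, and Vegfa with Flt1 at 0.83 and with Kdr at 0.78. Angpt2 stood apart, between -0.36 with Vegfa and 0.41 with Pecam1, and Sele reached at most 0.57, with Vwf.

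The genes most like each of the 10 in this respect were sought among about 12650 others with a mean of at least 1 FPKM. Over 12 samples the highest of so many r values would be high for unrelated genes too. The lists below are therefore descriptions only. For Vegfa they were Ampd1 (0.95), Sgcb (0.94) and Klhl31 (0.90), and for Kdr Kcna7 (0.96), Myo18b (0.94) and Asb16 (0.93), of which Ampd1, Klhl31 and Myo18b are genes of skeletal muscle. For Flt1 they were Rhoq (0.96), Chst15 (0.94) and Sgcb (0.92). For Pecam1 they were Mapre2 (0.97), Carhsp1 (0.97) and Tbc1d4 (0.96), for Cdh5 Scarf1 (0.94), Tigd2 (0.93) and Gnb4 (0.92), and for Tek Arhgap18 (0.95), Vti1b (0.94) and Enpp3 (0.92). Scarf1 is a scavenger receptor of endothelium. For Vwf they were Abca9 (0.96), Il6ra (0.94) and Phactr2 (0.94), and for Lyve1 Klhl6 (0.94), Ap5s1 (0.93) and Ebf2 (0.92). For Angpt2 they were Sash3 (0.91), Il2rg (0.90) and Defb4 (0.90), where Il2rg is a cytokine receptor chain of lymphocytes. For Sele they were Des (0.91), Rpl10 (0.91) and Atraid (0.90). Control replicate 2, low in skeletal muscle genes, was the lowest control sample of Vegfa, Kdr and Flt1. Its part in the r values of these genes, with each other and with muscle genes, was not tested.

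**Figure D5:**
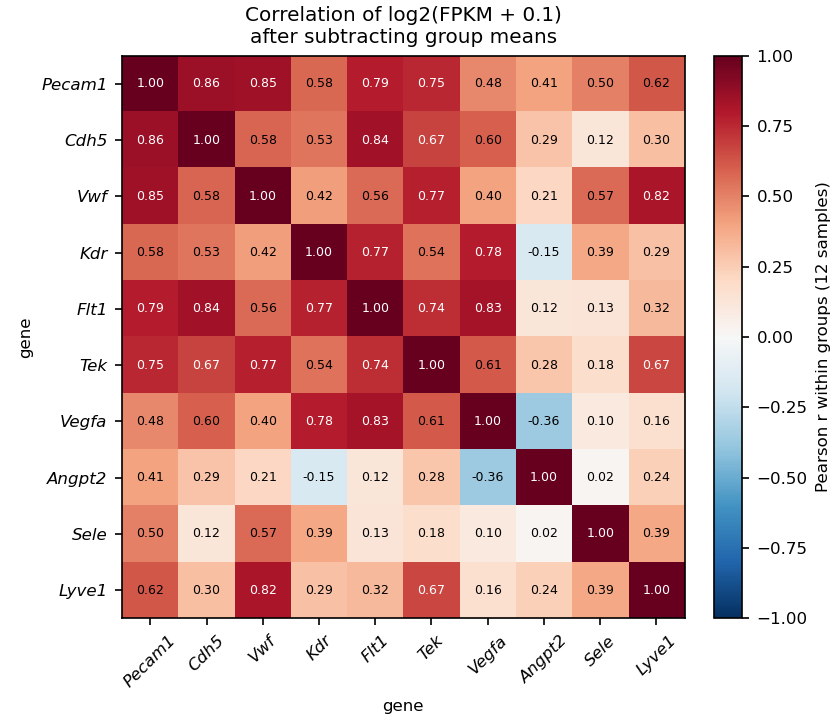
Pearson r between the 10 genes (both axes) over the 12 samples after subtraction of group means, with the value printed in each cell and red for positive and blue for negative. The highest value between different genes is 0.86, for Pecam1 and Cdh5, and the row of Angpt2 runs from -0.36 to 0.41.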

How the data were processed

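RNA-seq of skin in 12 samples was deposited as 1 table of FPKM values, which the authors obtained by alignment with Bowtie2 to mRNA and lncRNA transcripts and quantification with eXpress, per their methods. The submitters' processing notes name fastp, HISAT2, HTSeq, R 3.2.0 and mm10 instead, and the labels and methods also differ on the RNA extraction and library kits, so the steps that made the values are uncertain. Replicates are not pooled.

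Genes with a mean of at least 0.1 FPKM were tested on log2(FPKM + 0.1) with limma 3.58.1 in R 4.3.3 (moderated variances with a trend), 1 fit for each pair of groups, and Benjamini-Hochberg adjustment over 15288 genes. The constant understates changes of low genes. A gene was called at an adjusted p below 0.05. Single genes were also compared by two-sided exact permutation tests. Figures used matplotlib 3.10.9.

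The 10 genes, the other lists (written by hand) and the tests were chosen with earlier results of these data known. From each list the 4 called genes with the lowest adjusted p in a comparison were named, or all where 5 or fewer were called, plus the 3 genes most like each of the 10. Replicate numbers were not taken as pairs, since the labels do not say that a number marks a pair. Alternatives were other constants, filters, scalings and thresholds, 1 fit of all samples, no trend, a replicate block and leaving out each sample.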

Additional observations from a re-analysis of the deposited data

Results flagged for a closer look

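In 3 of 30 groups of 4 samples, 1 sample lay far from the other 3 by Dixon's criterion, which chance meets in about 1 of 20 groups. Flt1 was at 2.35 FPKM in IMQ + BZLF replicate 4 and at 1.65 to 1.77 in the other 3. Angpt2 was at 2.56 FPKM in IMQ + NS replicate 3 and at 1.61 to 1.74 in the other 3, and IMQ + NS replicate 3 also had the highest summed neutrophil level of its group, 115 FPKM, whose part in this value was not tested. Sele was at 2.04 FPKM in IMQ + BZLF replicate 3 and at 1.38 to 1.40 in the other 3.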

How the results depend on the processing

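Of 600 values of the 10 genes under alternatives, 554 kept direction and call, 33 lost their call, 10 gained one and 3 turned direction. With a fold change over 2 required besides the adjusted p, 1 of the 10 genes fell in IMQ + NS against control and 2 in IMQ + BZLF against control samples, and as many with an unadjusted p and that fold. Between IMQ + BZLF and IMQ + NS samples 2 of the 10 rose with median ratio scaling and 2 with quantile normalization. When single samples were left out, 0 to 1 rose and 0 to 1 fell in that comparison, 7 to 8 fell in IMQ + NS and 6 to 9 in IMQ + BZLF against control samples. Sele in IMQ + NS against control samples ranged from -0.052 to 0.33 (-0.02 without IMQ + NS replicate 2 and -0.052 without control replicate 2). The change of Angpt2 between IMQ + NS and IMQ + BZLF ranged from -0.18 to 0.034, the latter without IMQ + NS replicate 3. The cause was not tested.

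Over all genes, 4427 rose and 4142 fell in IMQ + NS against control samples, or 1740 and 1678 with the fold limit and 1799 and 1700 with an unadjusted p and the fold limit. In IMQ + BZLF against control samples 3640 rose and 4458 fell, or 1475 and 1542, and 1545 and 1565. Between IMQ + NS and IMQ + BZLF 195 rose and 791 fell, or 49 and 336, and 88 and 403. There 119 rose without a filter, 295 with median ratio scaling, 311 with quantile normalization and 95 with all 12 samples in one fit, and leaving out single samples gave 59 to 337 rises and 426 to 738 falls. Rescaling to equal sums put the median of all genes at -0.12 in IMQ + BZLF and at -0.07 in IMQ + NS against control samples.

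With the replicate number as a block, 7 of the 10 genes fell in IMQ + NS against control samples, none in IMQ + BZLF against IMQ + NS and 8 in IMQ + BZLF against control samples, and no call of the 10 genes changed. The deviations of same-numbered samples correlated between -0.15 and 0.26, and the labels give no shared animal, litter or day. Counts were not used here, so the depth behind each value is not known.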

Other observations

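Mural cells, the pericytes and smooth muscle cells around vessels, did not move as 1 group. Of 15 genes of the list 9 fell and 3 rose in IMQ + NS against control samples, with a median log2 fold change of -0.44. The smooth muscle genes Myh11 (-1.82) and Cnn1 (-1.86), the potassium channel gene Kcnj8 (-2.07) and Vtn (-1.93) fell. The 3 that rose, named after their values were seen, were the smooth muscle genes Tagln (0.64) and Acta2 (0.26) and Notch3 (0.57). Many of these genes are also expressed by the hair erector muscle and by other dermal cells. After BZLF 1 gene of the list was called against IMQ + NS samples, Cnn1, which rose by 0.64 (limma adjusted p = 0.0364).

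Inhibitors of angiogenesis were split as well. In IMQ + NS against control samples Thbs1 (1.45), Sema3f (0.98) and Col18a1 (0.83) rose, while Serpinf1 (-1.95) and Timp3 (-0.27) fell, 5 calls among 11 genes with a median of -0.01. Thbs1, a matrix protein that restrains endothelial growth, was at 9.55 FPKM in control, 24.8 in IMQ + NS and 17.0 FPKM in IMQ + BZLF samples on average, and its fall after BZLF was the single call among these genes (-0.53, limma adjusted p = 0.0355). Of the arterial and Notch list 4 rose and 5 fell in IMQ + NS against control samples. Unc5b rose from 8.02 to 28.6 FPKM (1.92), and the Notch ligand Dll4 (-0.69), the venous factor Nr2f2 (-0.96) and the kinase Bmx (-0.94) fell. Of 11 genes of haemostasis 3 rose, among them the protein C receptor Procr from 6.03 to 25.3 FPKM (2.12) and Ece1 (0.54), and 4 fell, among them the endothelial nitric oxide synthase Nos3 (-0.99) and Tfpi (-0.63). The samples are bulk skin, and whether the changes of these lists arose in vessels or in other skin cells was not tested.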
